A study of Mus musculus with 10 samples.

Results

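The S100 proteins are small calcium-binding proteins of the EF-hand type, and 10 of their genes were examined in primary mouse keratinocytes: S100a3, S100a4, S100a6, S100a8, S100a9, S100a10, S100a11, S100a13, S100a14 and S100a16. Every probe set annotated to 1 of these genes and to no other gene was taken, which gave 12 of the 45101 probe sets on the array and 9 of the 10 genes. Of these 9 genes, 7 have 1 probe set, S100a10 has 3 and S100a16 has 2. The only probe set of S100a11 is annotated to S100a11-ps and Gm12854 as well, so it was read apart and is not counted.

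The cells came from the skin of Sgpp1-/- mice (KO, 5 arrays) and of Sgpp1+/+ mice (WT, 5 arrays). Arrays are named here by the sample numbers in the titles, 8, 9, 10, 21 and 23 for KO and 1 to 5 for WT. The Sgpp1 product, sphingosine-1-phosphate phosphatase 1, belongs to sphingolipid metabolism. All cultures had 0.05 mM calcium and 8% fetal calf serum for 3 to 4 days, a condition that is commonly used to hold keratinocytes in a basal state, and their RNA was hybridised to 1-colour Affymetrix Mouse430_2 arrays. The labels give neither the design of the Sgpp1 allele nor the strain, sex or age of the mice. They also do not say whether the 5 samples of a group came from separate animals or cultures, so p-values measure the spread between these samples, which may be technical.

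Values are log2 signals per probe set, array medians lay between 5.02 and 5.17, and pairs of arrays correlated between 0.943 and 0.990 across probe sets. WT 1 stood farthest apart: its correlations averaged 0.955, and those of every other array averaged 0.967 or more. The targeted gene went against the labels. The brightest Sgpp1 probe set had 8.46, 9.01, 8.69, 8.92 and 9.03 on the arrays labelled KO, against 6.25, 7.82, 8.24, 8.34 and 7.70 on the arrays labelled WT, and the groups did not overlap on any of its 3 probe sets. That difference, 1.15 on the log2 scale, did not pass the limma test (adjusted p = 0.102), and it was 0.80 (adjusted p = 0.0356) without WT 1. In the limma fit over all probe sets none of the 3 was called (adjusted p = 0.156 to 0.198). The dimmest of them averaged 4.71 in KO and 4.20 in WT, below 6.01, the background level explained further on. Where the probes lie relative to the deleted part is not given, so every direction below rests on the labels, and KO and WT stand for the arrays labelled so. The keratinocyte markers Krt5 and Krt14 were bright in both groups. Krt5 averaged 12.73 ± 0.10 in KO and 12.78 ± 0.06 in WT, and Krt14 averaged 12.72 ± 0.04 in KO and 12.69 ± 0.14 in WT (SD, n = 5 each).

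An S100 protein is usually a dimer that opens a binding face when calcium is bound and then docks onto a target protein. S100a8 and S100a9 form calprotectin, a heterodimer that binds calcium and withholds zinc and manganese from microbes; it is abundant in neutrophils, and stressed, wounded or inflamed epidermis makes it too. S100a10 is the partner of annexin A2 and needs no calcium to bind it, S100a4 and S100a6 are common in fibroblasts and proliferating cells, S100a11 is a component of the cornified envelope, and S100a3 is known from the hair cuticle. Outside the cell several of these proteins act on receptors such as RAGE (Ager) and Tlr4.

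The promoters of S100a8 and S100a9 are shown because these are the genes whose signal changed. Both are from RefSeq on GRCm38.p6, from 250 bases before to 50 bases after the annotated start. S100a8 lies at chr3:90668821-90669120 on the plus strand, and S100a9 at chr3:90695672-90695971 on the minus strand. Capitals mark matches to the C/EBP motif TTNNGNAA on either strand and to TATAAA, and sequences run 5′ to 3′.
S100a8: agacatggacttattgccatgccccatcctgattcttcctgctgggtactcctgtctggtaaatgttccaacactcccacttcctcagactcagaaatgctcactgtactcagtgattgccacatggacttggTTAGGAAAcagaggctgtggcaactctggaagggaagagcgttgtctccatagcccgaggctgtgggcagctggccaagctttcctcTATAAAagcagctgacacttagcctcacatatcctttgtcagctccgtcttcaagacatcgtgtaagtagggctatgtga
S100a9: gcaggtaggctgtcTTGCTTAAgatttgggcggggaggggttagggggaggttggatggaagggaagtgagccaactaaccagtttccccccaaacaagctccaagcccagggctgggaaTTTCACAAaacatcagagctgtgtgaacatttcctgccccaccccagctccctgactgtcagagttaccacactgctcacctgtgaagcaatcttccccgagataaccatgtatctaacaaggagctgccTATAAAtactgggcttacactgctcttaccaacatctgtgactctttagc
The S100a8 window holds 1 C/EBP match, TTAGGAAA, and the S100a9 window holds 2, TTGCTTAA and TTTCACAA. Each window also holds 1 TATAAA. In S100a8 it begins at position -30 relative to the annotated start, and in S100a9 at position 1, the annotated start itself. Neither holds a match to the AP-1 motif TGANTCA. Over 32851 RefSeq promoter windows of the same length, searched on both strands, 40.7% hold the C/EBP motif, 13.6% hold TATAAA, 7.17% hold both and 7.81% hold the AP-1 motif, so a C/EBP match is common. The table has windows for 8 of the 10 genes, 12 windows in all, of which 4 hold a C/EBP match, 4 hold TATAAA and 2 hold an AP-1 match. A match describes letters in a window and is not a binding site. The AP-1 matches are in S100a11, which has 2 copies of TGAGTCA, and in 1 window of S100a16, which has TGAATCA.

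Of the 9 genes, 2 rose in KO, 0 fell and 7 did not pass the test. Over all 18193 genes 2.65% were called (limma, Benjamini-Hochberg adjusted p under 0.05), 2.30% higher and 0.346% lower. At an unadjusted limma p under 0.05, 2 members were higher and 1, S100a10, was lower, against 7.33% of all genes higher and 5.65% lower. S100a8 and S100a9 were also the 2 members whose KO and WT arrays did not overlap, a state shared by 4.38% of all genes. The median difference of the 9 genes was 0.03, against -0.01 over all genes, with 5 members above 0 and 4 below 0. Counted by probe set, 2 of the 12 were called higher and 0 lower, and the groups did not overlap on 2. Of the 45037 probe sets tested 1.27% were called, 1.13% higher and 0.142% lower, and 3.14% had groups that did not overlap. In bulk RNA, fewer cells of a type and less RNA per cell cannot be told apart.

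**Figure D1:**
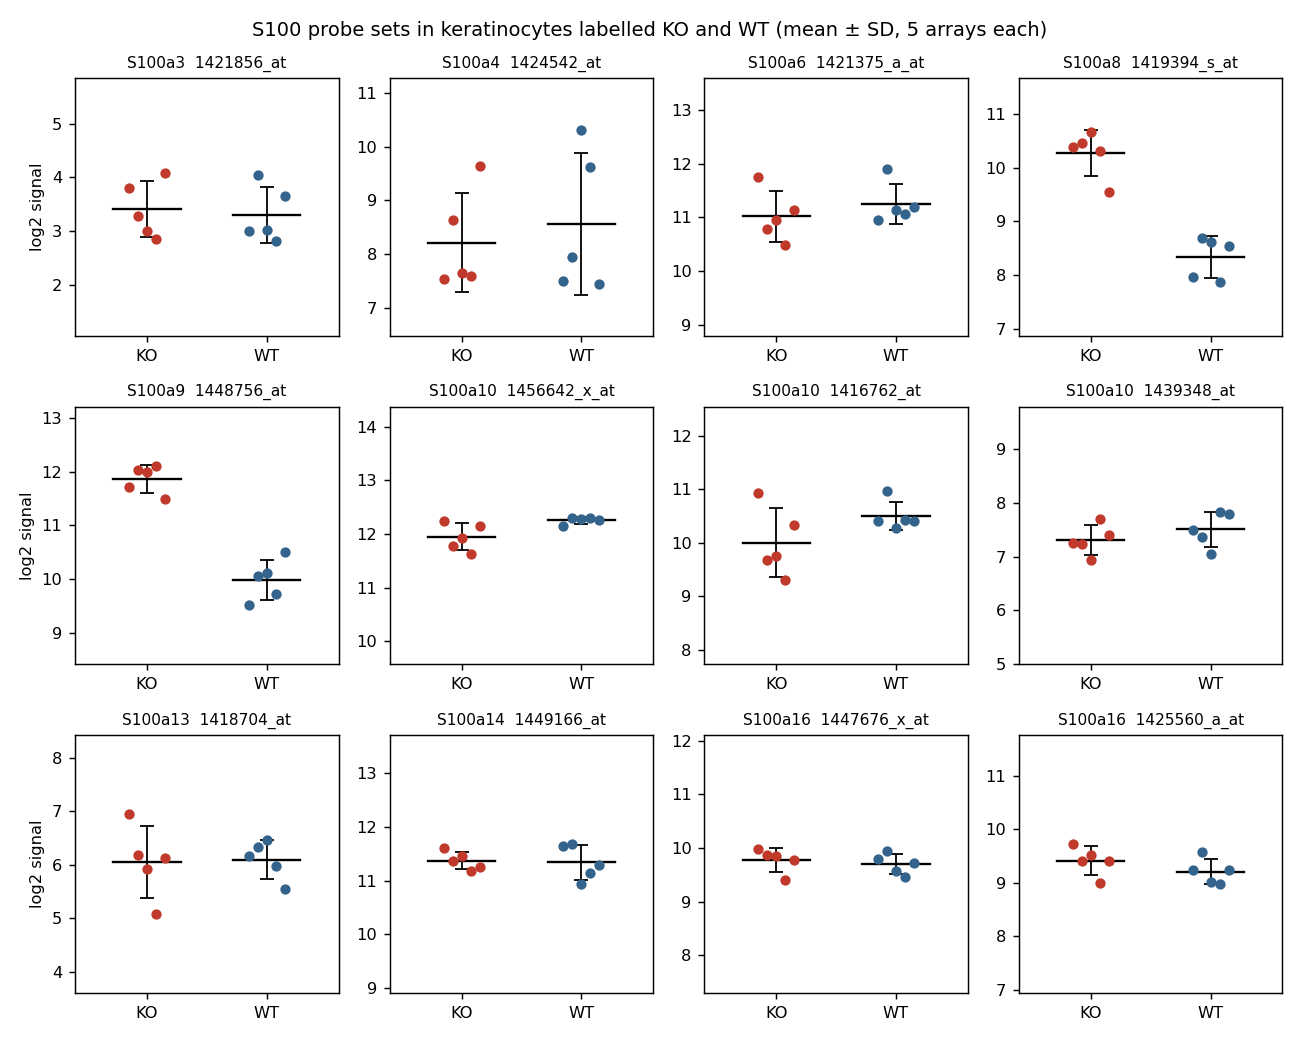
Log2 signal of the 12 S100 probe sets, 1 panel each, with KO on the left and WT on the right of each panel; points are arrays, bars are the mean and SD of 5 arrays, and every panel spans its own range of levels. S100a8 and S100a9 are the panels in which all KO points lie above all WT points, and S100a4 has the widest spread in both groups.

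S100a8 and S100a9, the subunits of calprotectin, were both higher in KO by almost the same factor. In the order KO 8, 9, 10, 21 and 23, and then WT 1 to 5, S100a8 had a log2 signal of 10.38, 10.46, 10.66, 10.30 and 9.55 on the KO arrays, against 7.97, 8.68, 8.62, 7.87 and 8.54 on the WT arrays. The lowest KO array, KO 23, lay above the highest WT array, WT 2. The group means were 10.27 ± 0.42 in KO and 8.34 ± 0.39 in WT (SD, n = 5 each), a difference of 1.93 (SE 0.23, 95% interval 1.43 to 2.43), or 3.82-fold (limma, adjusted p = 0.000595).

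S100a9, the larger subunit of the heterodimer, had 11.72, 12.03, 11.99, 12.10 and 11.49 on the KO arrays, against 9.51, 10.05, 10.11, 9.72 and 10.49 on the WT arrays. KO 23 was again the lowest KO array, and WT 5 was the highest WT array. The means were 11.87 ± 0.26 in KO and 9.98 ± 0.38 in WT (SD, n = 5 each), a difference of 1.89 (SE 0.19, 95% interval 1.47 to 2.31), or 3.70-fold (limma, adjusted p = 0.000286). By p-value S100a9 was the 21st and S100a8 the 51st of the 419 genes called higher, and by size of difference S100a8 was the 80th and S100a9 the 87th.

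The changes of the subunits did not differ detectably. The difference of S100a9 minus S100a8 within an array changed by -0.05 between KO and WT (95% interval -0.45 to 0.39, exact permutation test, p = 0.738, adjusted over 4 pairs of probe sets 0.738). The 4 pairs were chosen after values were seen. Both genes remained called in 21 of 23 alternatives to the analysis, among them each array left out in turn. They were not called when the running array number in the sample titles was entered as a covariate (S100a8 1.45, adjusted p = 0.773, and S100a9 1.40, adjusted p = 0.565). WT arrays hold numbers 1 to 5 and KO arrays 6 to 10, so an effect of running order cannot be fully told apart from one of group. In that fit limma called 0 of 18193 genes, with 656 higher and 287 lower at an unadjusted p under 0.05. Without the covariate 1333 genes were higher and 1027 lower at that limma threshold. The other alternative that called neither gene was the exact permutation test adjusted over all genes, which could call no gene here.

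Neutrophil and myeloid cells are the main source of calprotectin in blood, and their markers were measured on the same arrays. Of 18 markers (1 of them, Camp, is also read as an antimicrobial gene below), 1 was called higher and 0 lower, with a median difference of -0.17, and their summed signal on a linear scale was 691 to 2730 in KO and 855 to 2818 in WT. No marker has a value of 0 on this log2 scale; 14 of the 18 had means below 6.01, the second highest mean among 15 genes restricted to other organs, which serves here as the level under which no signal above background is shown, and 5 were below the median of those genes, 3.84. Among these dim markers, Elane averaged 2.45 ± 0.21 in KO and 2.47 ± 0.29 in WT, and Itgam 2.67 ± 0.08 in KO and 2.92 ± 0.33 in WT (SD, n = 5 each). The highest of the 15 means was 7.29, so means between 6.01 and 7.29 may also be background. The brightest marker, Lyz2, averaged 8.63 ± 1.14 in KO and 9.21 ± 0.82 in WT (SD, n = 5 each, limma adjusted p = 0.745). Lyz2 was highest on KO 23 (10.48) and WT 5 (10.50). Tyrobp was highest on KO 23 (9.04) and WT 5 (9.04); KO 23 had the lowest S100a8 and S100a9 of the KO arrays, and WT 5 had the highest S100a9 of the WT arrays. The part of myeloid cells in the S100a8 and S100a9 values was not tested. Of 8 Langerhans and dendritic markers 0 were called, and their summed signal (666 to 1388 in KO and 1348 to 1863 in WT) was mostly that of Epcam, which epithelial cells also express; the other 7 summed to 76.0 to 95.8 in KO and 79.4 to 117 in WT. Of 7 melanocyte markers 0 were called, with a median difference of 0.71 (2597 to 8565 in KO and 920 to 8818 in WT); their part in these results was not tested. The myeloid marker called was Cxcr2, a chemokine receptor of neutrophils that other cells also use, at 4.79 ± 0.24 in KO and 3.09 ± 0.29 in WT (SD, n = 5 each, limma adjusted p = 0.000234). Both means are below 6.01, so no fold is given.

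The genes with array-to-array deviations most like those of S100a8 and S100a9 were named by Pearson's r, after the group means were removed, over 10 arrays and among 8439 genes with a mean log2 signal of at least 6. For S100a8 they were Maoa (r = 0.899), which encodes monoamine oxidase A, Lypd5 (0.885), Ccdc71l (0.865), the amino acid transporter gene Slc7a1 (0.863) and Fbxo42 (0.855). For S100a9 they were Sdr9c7 (0.917), an enzyme gene of the epidermal barrier, Sbsn (0.912), which encodes suprabasin of the upper epidermis, Ifrd1 (0.892), Ptprz1 (0.888) and Tfap2c (0.886), which encodes an AP-2 transcription factor. These are the highest of 8439 values and describe these arrays only; S100a8 and S100a9 themselves had an r of 0.767. The group differences, which were removed before r was taken, were unlike among them. Lypd5 rose by 2.31 (adjusted p = 0.000513), Maoa by 1.66 (adjusted p = 0.00152), Sdr9c7 by 2.50 (adjusted p = 0.000222) and Sbsn by 1.11 (adjusted p = 0.00957), all by limma. Ccdc71l rose by 0.88 and Ifrd1 by 0.72 (limma, adjusted p = 0.036 each), and each of these 2 calls was lost in 12 of 23 alternatives. The WT means of Lypd5, 5.26, and Ptprz1, 5.99, are below 6.01. Ptprz1 had a difference of 1.06 (limma, adjusted p = 0.0627), Slc7a1 0.18, Fbxo42 0.19 and Tfap2c 0.24, and these did not pass.

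**Figure D2:**
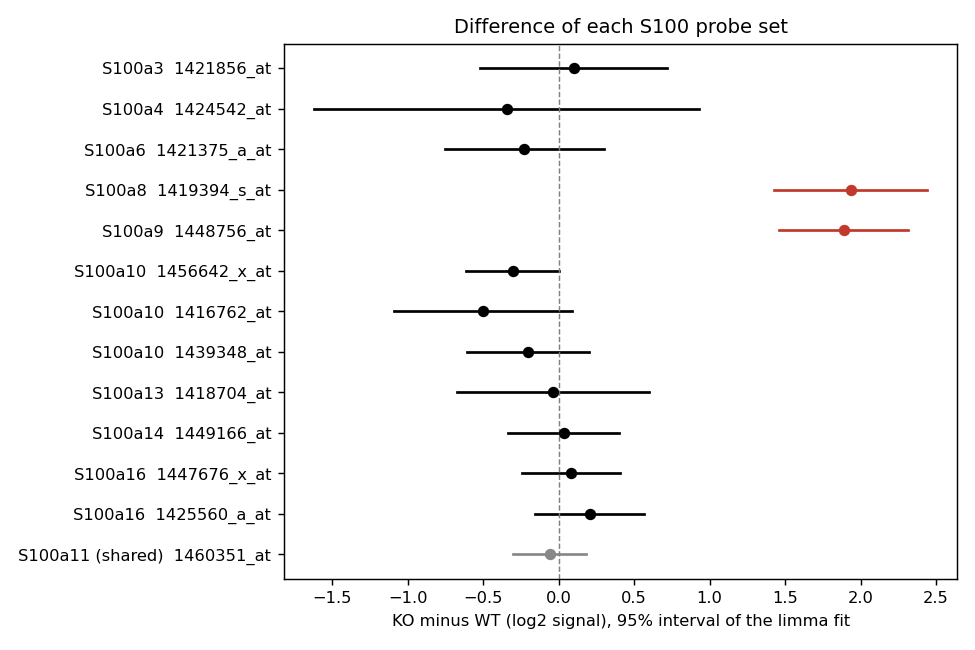
Difference in log2 signal, KO minus WT, of each S100 probe set, with the 95% interval of the limma fit; red marks probe sets called higher, and grey the probe set that S100a11 shares with other genes. The intervals of S100a8 (1.43 to 2.44) and S100a9 (1.46 to 2.31), from the fit of all probe sets, lie to the right of 0, and the other points lie between -0.50 and 0.21.

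S100a10 is the light chain that holds annexin A2 in a tetramer at the plasma membrane. Its brightest probe set had 12.23, 11.78, 11.93, 11.64 and 12.16 on the KO arrays, against 12.14, 12.29, 12.27, 12.30 and 12.25 on the WT arrays. KO 8 and KO 23 reached into the narrow WT range and the other KO arrays lay below it. The means were 11.95 ± 0.25 in KO and 12.25 ± 0.06 in WT (SD, n = 5 each), a difference of -0.31 (95% interval -0.61 to -0.002), which did not pass the limma test (adjusted p = 0.381).

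The other S100a10 probe sets gave differences of the same sign that did not pass either. One had 10.94, 9.67, 9.75, 9.30 and 10.34 on the KO arrays, against 10.41, 10.96, 10.28, 10.42 and 10.42 on the WT arrays, a difference of -0.50 (adjusted p = 0.615 over all probe sets). The dimmest had a difference of -0.20 (adjusted p = 0.854 over all probe sets). Anxa2, the partner of S100a10, averaged 11.95 ± 0.18 in KO and 12.21 ± 0.12 in WT (SD, n = 5 each), a difference of -0.26 (limma, adjusted p = 0.44). The change of S100a10 differed from that of Anxa2 by -0.04 (95% interval -0.17 to 0.09, exact permutation test, p = 0.468, adjusted over 4 pairs 0.624).

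S100a6, also called calcyclin, had 11.75, 10.79, 10.94, 10.48 and 11.13 on the KO arrays, against 10.94, 11.90, 11.14, 11.05 and 11.20 on the WT arrays. KO 8 and WT 2 stood above the other arrays of their groups, as they did on the S100a10 probe set with the -0.50 difference. The groups overlapped, and the difference was -0.23 (SE 0.24, 95% interval -0.75 to 0.29, limma adjusted p = 0.808).

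S100a4, a gene that is abundant in fibroblasts and is often used to mark them, varied most. It had 7.54, 8.64, 7.65, 7.60 and 9.64 on the KO arrays, against 7.49, 7.94, 10.31, 9.61 and 7.43 on the WT arrays. WT 3, WT 4 and KO 23 were the 3 highest arrays, and they were also the 3 highest for the fibroblast collagen genes Col1a1 and Col3a1 and for the receptor gene Pdgfra. Col3a1 had 5.37, 7.07, 6.09, 5.95 and 8.28 on the KO arrays, against 6.20, 5.58, 10.63, 10.33 and 5.47 on the WT arrays. The 9 fibroblast markers measured, none of which was called, summed on a linear scale to 1501 to 8797 in KO and 1368 to 20628 in WT; their part in the S100a4 values was not tested. S100a4 averaged 8.21 ± 0.92 in KO and 8.56 ± 1.32 in WT (SD, n = 5 each), a difference of -0.35 (95% interval -1.61 to 0.92, limma adjusted p = 0.9). The difference was 0.09 without WT 3 alone and 0.23 without WT 3, WT 4 and KO 23.

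**Figure D3:**
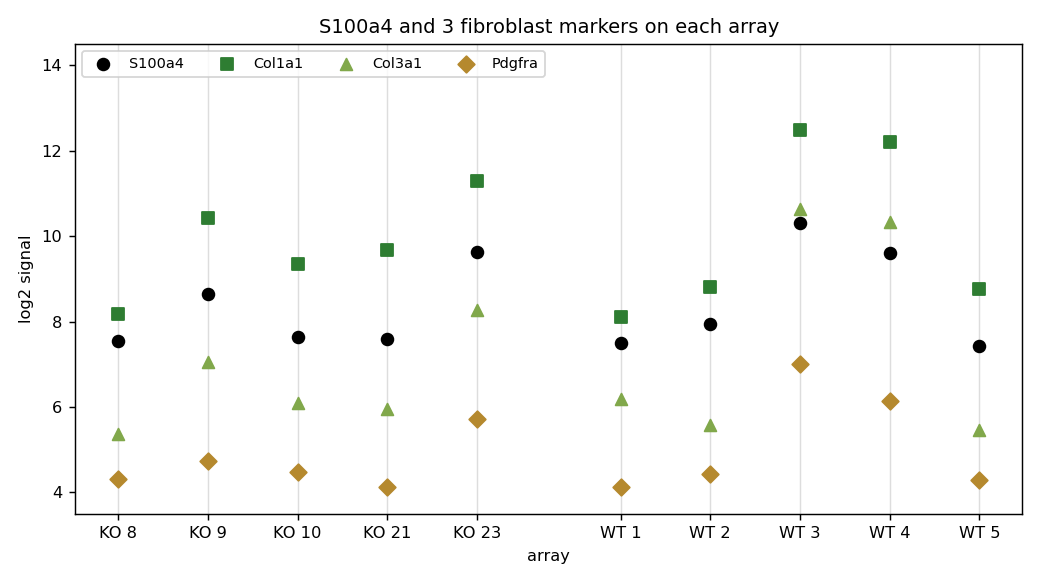
Log2 signal of S100a4 and of the fibroblast genes Col1a1, Col3a1 and Pdgfra on each of the 10 arrays, with the 5 KO arrays on the left and the 5 WT arrays on the right. All 4 genes are at their highest on WT 3, WT 4 and KO 23, where S100a4 reads 10.31, 9.61 and 9.64.

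S100a14 and S100a16 are S100 proteins of epithelia, and S100a13 takes part in the release of proteins that lack a signal peptide, such as Fgf1 and Il1a. S100a14 had 11.60, 11.37, 11.45, 11.18 and 11.25 on the KO arrays, against 11.65, 11.68, 10.93, 11.14 and 11.29 on the WT arrays, a difference of 0.03 (95% interval -0.33 to 0.40, limma adjusted p = 0.973). S100a16 had 9.99, 9.87, 9.85, 9.41 and 9.77 on the KO arrays, against 9.79, 9.94, 9.57, 9.45 and 9.73 on the WT arrays, on its brighter probe set, a difference of 0.08 (95% interval -0.24 to 0.40, limma adjusted p = 0.911). Its other probe set gave 0.21 (adjusted p = 0.813 over all probe sets). The KO and WT arrays overlapped for both genes.

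S100a13 had 6.95, 6.18, 5.93, 5.08 and 6.14 on the KO arrays, against 6.16, 6.34, 6.46, 5.98 and 5.54 on the WT arrays, a difference of -0.04 (95% interval -0.67 to 0.59, limma adjusted p = 0.983). KO 8 was the highest and KO 21 the lowest of all 10 arrays, so the KO arrays alone spanned the range. The S100a13 means, 6.05 in KO and 6.10 in WT, lay barely above 6.01. They lay below 7.29, the highest mean among the 15 genes restricted to other organs. S100a3 had 3.80, 3.28, 3.00, 2.86 and 4.08 on the KO arrays, against 3.00, 4.04, 3.01, 2.81 and 3.65 on the WT arrays, with a difference of 0.10 (95% interval -0.51 to 0.71, limma adjusted p = 0.947). That is within the signal of the 15 genes restricted to other organs, whose second highest mean was 6.01, so no S100a3 level above background was shown. Over the 7 members that did not pass, intervals reached from -1.61 to 0.92, and in 146 fits under the alternatives, exact tests apart, 0 passed.

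The probe set that S100a11 shares with S100a11-ps and Gm12854 averaged 12.93 ± 0.05 in KO and 12.99 ± 0.07 in WT (SD, n = 5 each), with a difference of -0.06 (adjusted p = 0.954 over all probe sets). This signal cannot be assigned to S100a11 alone. Of 6 other genes measured that carry S100 in their names, 0 were called by limma. S100a1 had a difference of -0.01, S100a5 0.11, S100b -0.13, S100g 0.20 and S100a7l2 0.10. The remaining gene, S100pbp (-0.20), encodes an S100P-binding protein and is not itself an S100 gene. S100a7l2 was added after its values were seen. S100a1, S100a5, S100a7l2, S100b and S100g had means below 6.01 in both groups, with S100a7l2 the dimmest (2.37 in KO and 2.26 in WT).

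Most S100 genes lie side by side on mouse chromosome 3, next to the epidermal differentiation genes, and the gene order was taken from RefSeq GRCm38.p6. In the block from S100a1 to S100a9 all 12 protein-coding genes are S100 genes, and 10 were measured. S100a8 and S100a9, the 2 genes at the end that faces the epidermal genes, were called higher, which is 20% of the 10 measured, and the median difference was 0.06. Between S100a9 and S100a11 lie 56 protein-coding genes, among them those of the cornified envelope, of which 37 were measured and 29 (78.4%) were called higher, with a median difference of 2.22. One of the 37 is an S100 gene, S100a7l2, which was not called. Beyond them S100a10 was not called. Over all genes 2.30% were called higher. The segments were chosen after values were seen, and neighbours are not independent.

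**Figure D4:**
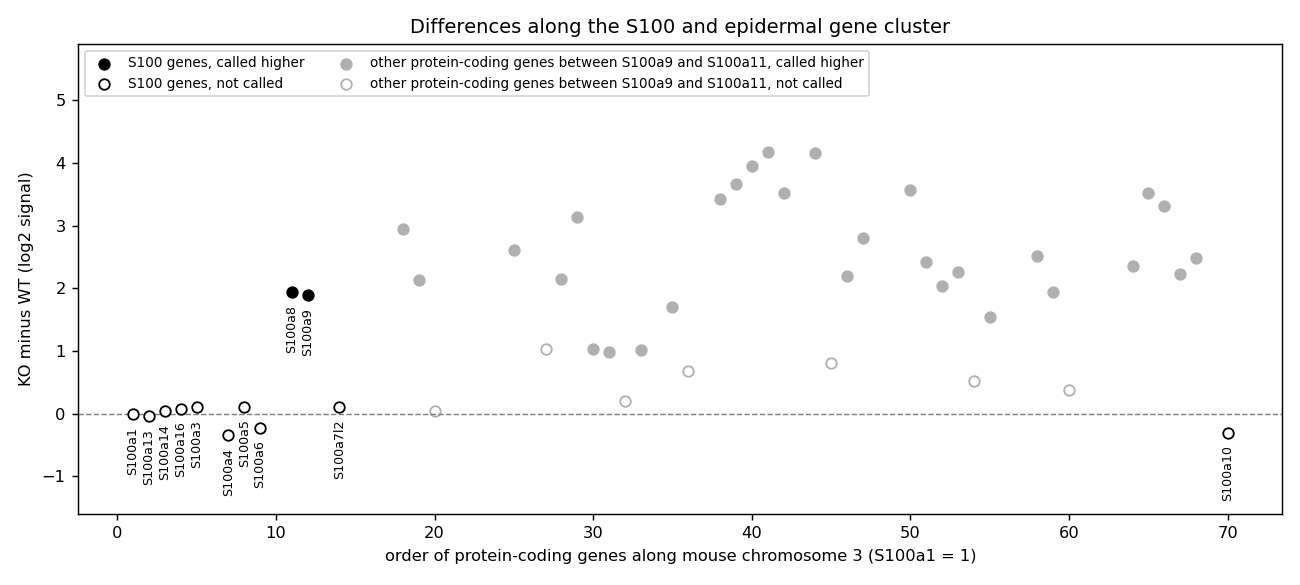
Difference in log2 signal, KO minus WT, against the order of protein-coding genes along mouse chromosome 3 from S100a1 (1) to S100a10 (70); black marks S100 genes and grey the others, filled where called higher. S100a8 (11) and S100a9 (12) are the filled black points and lie next to the stretch in which 29 of 37 measured genes are called higher.

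Genes around the S100 proteins were read from 4 lists chosen with earlier results of these data known. Their counts stand against 2.30% of all genes called higher and 0.346% called lower, and against 7.33% higher and 5.65% lower at an unadjusted limma p under 0.05. Of 8 receptors of S100 proteins, among them Ager, Tlr4 and Bsg, 0 were called, and 0 had an unadjusted limma p under 0.05, with a median difference of 0.02. Ager averaged 5.56 ± 0.27 in KO and 5.54 ± 0.31 in WT (SD, n = 5 each, difference 0.02), Bsg, which encodes basigin, a receptor for S100a9, had a difference of 0.28 (adjusted p = 0.613), and Mcam had -0.44 (adjusted p = 0.643). Of 20 protein partners measured, 2 were called higher and 0 lower (3 and 3 at an unadjusted limma p under 0.05), with a median of -0.13. These were the transglutaminase genes Tgm3, which crosslinks the cornified envelope and rose 3.22-fold (limma, adjusted p = 0.00506), and Tgm1, which rose 2.19-fold (limma, adjusted p = 0.0104). The KO mean of Tgm3, 7.10, is below 7.29, and its WT mean, 5.41, is below 6.01. Both means of the receptor genes Ager, Tlr4, Cd36 and Cd69 are as well, so the lack of a call there does not show an unchanged level. Anxa6 (-0.87) and Il1a (-1.03) had the most negative differences of the partners and did not pass. Their KO means, 5.21 and 5.86, are below 6.01. Both means of the partner genes Fgf1, Plg, Plat, Padi3 and Dysf are below 6.01, and no unchanged level is shown for these either.

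Of 22 genes known to regulate calprotectin or skin inflammation, 4 were called higher and 0 lower (10 and 1 at an unadjusted limma p under 0.05), with a median of 0.18. The transcription factor gene Klf4, which drives epidermal barrier formation, averaged 10.59 ± 0.15 in KO and 9.60 ± 0.28 in WT (SD, n = 5 each, 1.99-fold, limma adjusted p = 0.00343). Cebpa, which encodes a C/EBP factor of epidermal differentiation, averaged 8.96 ± 0.24 in KO and 7.87 ± 0.32 in WT (SD, n = 5 each, 2.12-fold, limma adjusted p = 0.0046). Zfp36, which encodes the mRNA decay factor tristetraprolin, rose 1.72-fold (limma, adjusted p = 0.00757), and Il22ra1, a receptor subunit for interleukin-22, rose 1.57-fold (limma, adjusted p = 0.0194). Cebpb had a difference of 0.36, Stat3 0.24, Jun 0.58 and Tnfrsf1a 0.61, and these did not pass. Both means of Il6, Il1b, Tnf, Il20ra and Il20rb are below 6.01, so the lack of a call there does not show an unchanged level. The Il22ra1 call was lost without KO 9 (adjusted p = 0.065) or without WT 4 (adjusted p = 0.0611). The Il22ra1 WT mean, 6.85, lay below 7.29, the highest mean among the 15 genes restricted to other organs.

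Of 15 antimicrobial and wound-response genes measured, 6 were called higher and 0 lower (8 and 0 at an unadjusted limma p under 0.05), with a median of 0.61. The beta-defensin gene Defb4 had 5.86, 5.16, 5.57, 5.97 and 6.09 on the KO arrays, against 3.16, 2.99, 3.04, 2.95 and 4.79 on the WT arrays (difference 2.34, limma adjusted p = 0.00187). Its groups did not overlap. Defb3, another beta-defensin gene, averaged 4.60 ± 0.30 in KO and 3.81 ± 0.30 in WT (SD, n = 5 each, difference 0.79, limma adjusted p = 0.0389). For both defensin genes the KO and WT means are below 6.01, so no fold is given. The cornified envelope gene Sprr2d rose 6.13-fold (limma, adjusted p = 0.0021), Sprr1b 1.98-fold (adjusted p = 0.00865), Sprr1a 2.01-fold (adjusted p = 0.0108) and the wound keratin gene Krt6b 3.94-fold (adjusted p = 0.02). The Krt6b and Defb3 calls were lost with single arrays left out, such as KO 9 (adjusted p = 0.0666 for Krt6b and 0.13 for Defb3). The antimicrobial genes Lcn2 (0.61), Slpi (0.49) and Defb1 (0.68), and the wound keratin gene Krt6a (0.13), did not pass. Both Lcn2 means, 4.23 in KO and 3.62 in WT, are below 6.01. So are both means of Defb6, Camp and Pglyrp1, and the lack of a call for these genes does not show an unchanged level.

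**Figure D5:**
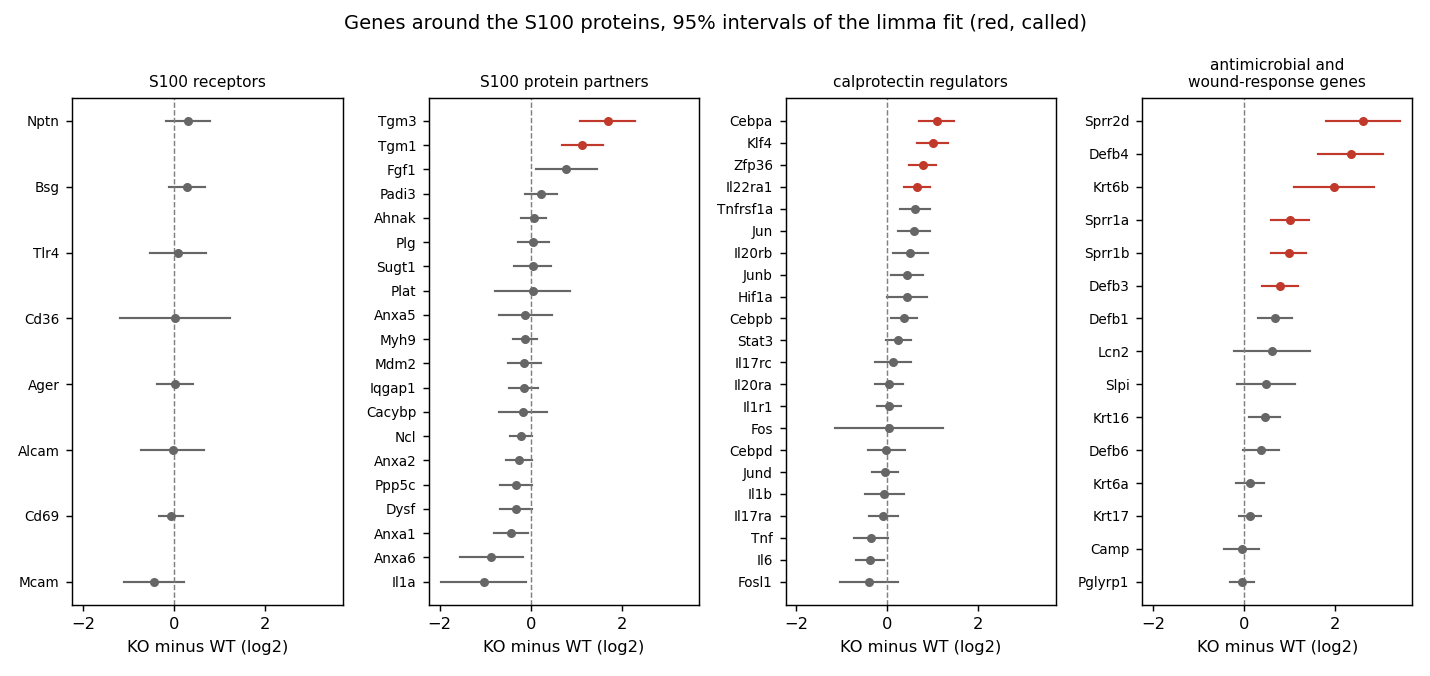
Difference in log2 signal, KO minus WT, with the 95% interval of the limma fit for each measured gene of the 4 lists, sorted by difference; red marks genes called. Calls appear in 2 of 20 partners, 4 of 22 regulators and 6 of 15 antimicrobial and wound-response genes, and in 0 of 8 receptors.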

How the data were processed

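Log2 expression values of 10 arrays, 1 per probe set, were made with RMA (background correction, equal intensity distributions and summarisation of probes) by the authors, per the submitters' processing notes, and were used as deposited; software and version are not given in the sources used here. RMA compresses differences of dim probe sets and hides shifts common to most genes. 0 columns of values were left out, and the number of arrays limits the precision.

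Of 45101 probe sets, 64 are controls; 34945 have 1 gene in the platform's annotation, 932 several and 9160 none. Gene identifiers of 34754 were found in the RefSeq gene table of GRCm38.p6, which also gave gene order; promoters came from the same build, and no protein sequences were used. The probe set brightest over the 10 arrays stood for each of 18193 genes. KO minus WT was tested in limma 3.58.1 with R 4.3.3 (lmFit and eBayes, two-sided, Benjamini-Hochberg over all genes, threshold 0.05; no pseudocount, no filter), as were all probe sets; SE and intervals are from that fit. The fit was tested on simulated data with independent noise for each gene, unlike real arrays, and with 200 of 18193 genes changed. It called 76% of genes changed by 1 on the log2 scale and 96% of those changed by 2. Of its 181 calls 9 were false. Differences within arrays were compared by exact permutation tests over 252 assignments, with intervals from inverting that test (Python 3.11.15); the smallest p is 0.00794.

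Members and gene lists were chosen with earlier results of these data known. The text names all members, Sgpp1, the other S100 genes, up to 6 called genes of each list (or the 2 with the smallest adjusted p where fewer than 2 are called), and the 5 genes most like each called member. Other genes given with values (Krt5, Krt14, the collagen, Pdgfra, myeloid and Anxa2 values, and further list members) were picked with the values in view. Alternatives covered arrays left out, an array-number covariate, dim probe sets, probe set choice, normalisation, variance model, multiple testing and an exact test.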

Additional observations from a re-analysis of the deposited data

Results flagged for a closer look

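Values of a group of 5 arrays were compared with Dixon's critical value of 0.71 for the gap of the highest or lowest array over the range of the group. Of 84 groups tested, 6 passed, and chance gives about 1 in 20. WT 2 was high for S100a6 (11.90, the next WT array 11.20) and for the S100a10 probe set with the difference of -0.50 (10.96, next 10.42). Bsg was low on WT 1 (9.72, next 10.41). Defb4 was high on WT 5 (4.79, next 3.16), which lies below every KO array. Fbxo42 was low on KO 23 (6.43, next 6.60) and on WT 4 (6.22, next 6.41); both arrays are also low for S100a8, which Fbxo42 was named for resembling.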

How the results depend on the processing

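The S100a8 and S100a9 differences stayed above 0 in all 23 alternatives, between 1.45 and 2.17 for S100a8 and between 1.40 and 2.11 for S100a9; leaving out 1 array at a time gave 1.82 to 2.11 and 1.77 to 2.02. Both were lost (1.45 and 1.40) with array number as a covariate. They were also lost with the exact permutation test adjusted over all genes (1.93 and 1.89, adjusted p = 0.181). Before adjustment both had the smallest p that this exact test can give, 0.00794. No gene could therefore have an adjusted p below 0.181, and the adjusted exact test could call none. The covariate fit and the adjusted exact test each called 0 genes of any list or overall. The exact test unadjusted called 1359 genes higher and 883 lower, 1 S100 gene (S100a10) and 3 partners lower, and 10 regulators higher and 1 lower. Array weights called 877 genes higher and 561 lower, 8 regulators higher and 1 lower, and 1 partner lower. Genes called lower were 40 with a common array median and 30 adjusted over all probe sets. With 1 array left out, 264 to 419 genes were called higher (lowest without KO 9) and 13 to 107 lower (lowest without KO 9, highest without KO 23), and 0 to 1 partners lower (1 without WT 5). Without WT 1, WT 2 and KO 8, a set of arrays that no label groups, 2 regulators were called higher. In that fit S100a1 turned to 0.43 and S100b to 0.042. Without WT 3, WT 4 and KO 23, an alternative chosen after seeing the data, 266 genes, 2 regulators and 1 partner were called higher and 1 partner lower, and uncalled S100 genes turned: S100a3 -0.33, S100a4 0.23, S100a13 0.020, S100a14 -0.14, S100a16 -0.040 and S100b 0.0054. Without WT 5 and KO 23, also chosen after seeing the data, 95 genes and 1 partner were called lower. With array number as a covariate S100a16 turned to -0.013, S100a1 to 0.89, S100b to 0.23, Bsg to -0.13, Slc7a1 to -0.30 and Tfap2c to -0.19. S100a1 was 0.0059 with a common median, 0.22 with array weights and 0.05 with the mean of all probe sets, where Fbxo42 was -0.012; S100a14 was -0.012 after quantile normalization. Single arrays left out turned uncalled genes, over S100a14 -0.069 to 0.12, S100a1 -0.16 to 0.19, S100a13 -0.26 to 0.20, S100a3 -0.070 to 0.28, S100b -0.24 to 0.0081 and S100a4 -0.70 to 0.092. The cause was not tested for any of these. Calls lost without WT 1, WT 2 and KO 8 included Zfp36 (adjusted p = 0.0521) and Sprr1a (0.0736), and without WT 3, WT 4 and KO 23 Zfp36 (0.0544), Tgm1 (0.084) and Sbsn (0.0761). No paired analysis was possible because the labels' sample numbers share none between KO and WT. Background correction could not be redone from RMA values, and slide or scan date was not used here.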
